A study of Mus musculus with 15 samples.

Results

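The G2/M and mitosis genes are 38 mouse genes whose products drive cells from the end of G2 through division, and they were taken by symbol from the 4 deposited tables of normalized counts. All 38 were found in each table, among 17775 to 19035 genes, and all 38 passed the filter of a value of at least 10 in 3 or more libraries, together with 13109 to 14390 genes in all. The members were grouped by role into a cyclin-CDK engine (6 genes), entry and centrosome kinases (3), spindle checkpoint and anaphase (6), the chromosomal passenger complex (4), centromere and kinetochore (6), spindle motors and assembly (6), central spindle and cytokinesis (5) and chromosome structure (2).

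RNA of total bone marrow from leukemic C57BL/6 mice was sequenced in 15 libraries, 3 for each of 5 groups. Every leukemia began with lineage-depleted marrow cells that a retrovirus had given the MLL-AF9 oncogene and GFP, and it was passed on through serial transplants until marrow of the fourth set of recipients was taken, so host cells can be among those measured. All donors carried human GFI1 sequence at the mouse Gfi1 locus, so no group had an unaltered locus. Genotype GFI1 KI /KI, called 36S, held the human gene (libraries 1 to 3), genotype GFI1 36N /36N held its 36N variant (libraries 4 to 6), and genotype GFI1 KD /KD expressed the human gene at 10 to 20% (libraries 7 to 9). The 2 remaining groups were 36S and 36N cells given temozolomide (TMZ), a drug that methylates DNA, for the last 20 h before RNA was taken, at 50 µg/ml. No label says whether the untreated cells were kept for those hours too. Sample titles end in 1, 2 and 3 for 36S but all in 1 for 36N and KD, while the column headers of the TMZ table carry a different further number for each library, and no source used here says what these numbers mark. Whether the 3 libraries of a group came from separate leukemias is thus not known, and p-values measure the spread between these libraries, which may be technical.

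As background, cyclin B with CDK1 starts mitosis once phosphatases of the CDC25 family remove the inhibitory phosphates set by WEE1. Polo-like and Aurora kinases then build the spindle, the spindle checkpoint holds cells until every kinetochore is attached, and the anaphase-promoting complex releases separase to part the sister chromatids. Most of these genes are transcribed late in the cell cycle through a promoter element named CHR, bound by the MuvB complex with MYBL2 and FOXM1, often beside CCAAT boxes bound by NF-Y.

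Letters of that element stood in most of the promoters. RefSeq windows from 250 bases before to 50 after a gene's start (GRCm38.p6) matched 32 of the 38 genes. TTTGAA or TTCGAA was present on either strand in 25 of the 32 (78.1%), against 21.7% of 27025 genes, and within 50 bases of the start in 23 (71.9%), against 6.12%. CCAAT, on either strand, was present in 25 (78.1%), against 41.1%, and occurred 2 or more times in 17 (53.1%), against 13.3%. A match of the element and a CCAAT match can share at most 1 base, and a match is a description of the sequence only. The windows shown belong to the 4 genes with the lowest p-values in the TMZ comparison below among members with a match. They run from 150 bases before the start to 25 after it, with the matched letters in capitals (ATTGG and CCAAT for the CCAAT box, TTTGAA and TTCGAA for the element). In Espl1 (chr15:102296143-102296317, plus strand) the element began 27 bases before the start, in Cdc25b (chr2:131186798-131186972, plus strand) and in Cenpa (chr5:30666736-30666910, plus strand) it lay just after the start, and in Mki67 (chr7:135716355-135716529, minus strand) there were 2 copies farther upstream.
Espl1: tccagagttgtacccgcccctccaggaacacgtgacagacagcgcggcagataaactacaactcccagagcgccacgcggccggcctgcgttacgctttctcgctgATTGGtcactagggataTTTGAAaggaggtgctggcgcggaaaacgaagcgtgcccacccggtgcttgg
Cdc25b: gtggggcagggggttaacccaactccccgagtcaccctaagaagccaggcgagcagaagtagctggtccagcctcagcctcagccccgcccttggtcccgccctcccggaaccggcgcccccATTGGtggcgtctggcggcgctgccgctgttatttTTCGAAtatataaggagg
Cenpa: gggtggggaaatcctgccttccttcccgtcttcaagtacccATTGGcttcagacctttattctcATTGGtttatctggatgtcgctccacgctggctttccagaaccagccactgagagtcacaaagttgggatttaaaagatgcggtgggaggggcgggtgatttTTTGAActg
Mki67: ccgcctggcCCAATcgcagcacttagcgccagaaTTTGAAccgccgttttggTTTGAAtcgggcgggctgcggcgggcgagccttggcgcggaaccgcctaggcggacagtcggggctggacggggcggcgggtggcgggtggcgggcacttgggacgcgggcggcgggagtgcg

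The members were well expressed in every library. Their normalized counts ran from 96.0 for Cdc25c in a KD library to 31089 for Mki67 in an untreated 36N library. Per kilobase of exon, untreated 36S libraries held 2651 ± 144 counts (SD, n = 3) for Mki67, which encodes a coat protein of mitotic chromosomes. The next levels per kilobase were 678 ± 150 for Ccnb2 (cyclin B2) and 671 ± 116 for Top2a (topoisomerase II alpha), which did not differ beyond their spread. The lowest was 32.0 ± 6.44 for Cdc25c, a phosphatase that activates CDK1. Mki67 alone made up 37.0 to 42.5% of the summed member counts in the untreated libraries of 36S, 36N and KD.

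The libraries of one group did not stand at one level. Among untreated 36S and 36N libraries, 36S library 1 held the highest value for 31 of the 38 members. Relative to the 36S mean, the median member stood at 0.23 (log2) in 36S library 1, -0.15 in library 2 and -0.10 in library 3. In 36S library 1 the summed late neutrophil markers were 65174, against 5731 in the lowest 36S library. KD libraries were spread as widely, with a median member at 0.01 in library 7, -0.48 in library 8 and -0.32 in library 9, while 36N libraries lay close together at -0.29, -0.38 and -0.40. Column totals of normalized counts in units of 1000000, ran from 11.3 to 24.3 over the 4 tables. Whole reads could not be recovered, so the depth behind a value is unknown.

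**Figure D1:**
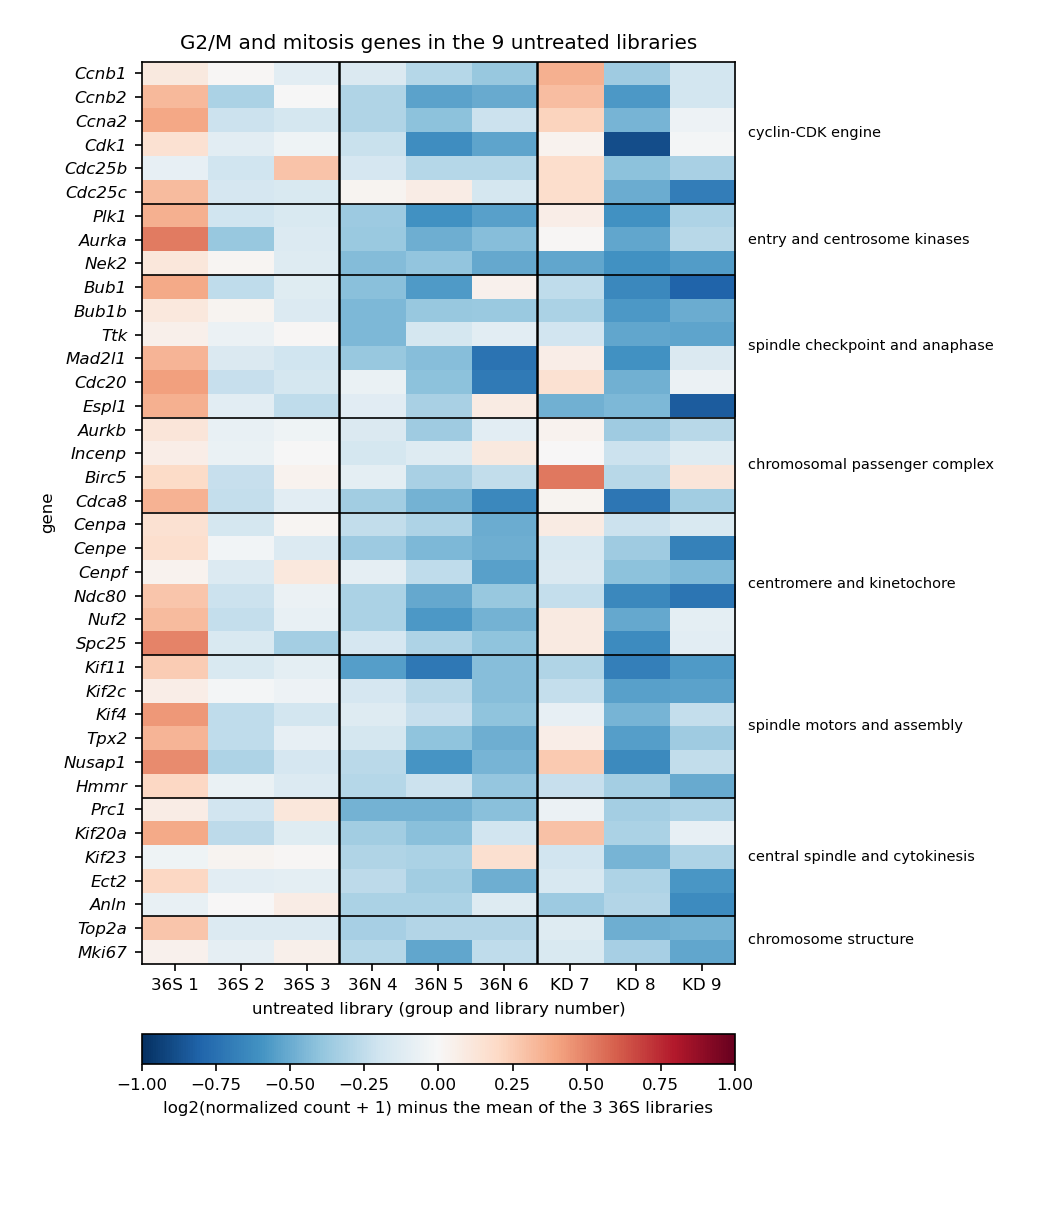
Each row is a member, grouped by role, and each column an untreated library; color is log2(normalized count + 1) minus the mean of the 3 36S libraries. Blue prevails in 36N libraries 4, 5 and 6 (median member -0.29, -0.38 and -0.40) and in KD libraries 8 and 9, while 36S library 1 is above its group mean (0.23) and KD library 7 is near it (0.01).

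Untreated 36N against 36S asks whether the 36N variant changes the level of these genes. All 38 members had a lower mean in 36N, but none passed the test over all genes (limma on log2(normalized count + 1), Benjamini-Hochberg adjusted p under 0.05). Among all 13137 genes tested, 2.01% were called lower and 2.55% higher, and 51.7% had a fold change below 0. The median log2 fold change of the members was -0.34, against -0.01 over all genes, and ran from -0.56 (Kif11) to -0.02 (Cdc25c). At an unadjusted p under 0.05, 19 members were lower and 0 higher, where 9.55% of all genes were lower and 10.8% higher. The 3 libraries of 36N lay below all 3 of 36S in 22 members and above them in 0, where 13.8% of all genes were lower and 13.1% higher by that measure. Counts in bulk marrow cannot tell fewer dividing cells from less RNA per cell.

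The lowest p-values belonged to a motor, a spindle bundler and a kinetochore motor, none of which passed. Kif11 (mm10, chromosome 19, 37376403 to 37421859), the plus-end motor that pushes spindle poles apart, had normalized counts of 2183, 1653 and 1714 in 36S and 1255, 1120 and 1363 in 36N. The groups did not overlap, and the log2 fold change was -0.56 (SE 0.14, limma adjusted p = 0.051). Prc1, which bundles the central spindle, had 1426, 1191 and 1471 in 36S and 978, 975 and 1017 in 36N, again without overlap (-0.45, SE 0.11, limma adjusted p = 0.060). Cenpe, a kinetochore motor that brings chromosomes to the plate, had 2013, 1764 and 1631 against 1396, 1317 and 1279 (-0.43, SE 0.11, limma adjusted p = 0.065). 36S library 1 was the highest for Kif11 and Cenpe, but 36S libraries 2 and 3 also lay above every 36N library in all 3 genes.

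By role, the median fold changes in 36N were close to each other, between -0.22 for the chromosomal passenger complex and -0.45 for the entry and centrosome kinases. In the cyclin-CDK engine (median -0.29), Cdk1 stood at 548 ± 51.7 in 36S and 401 ± 59.1 in 36N (SD, n = 3; -0.46), and Ccnb1, cyclin B1, at 593 ± 41.1 and 492 ± 40.9 (-0.27). The groups did not overlap in either gene. Cdc25c overlapped, at 157 ± 31.7 and 153 ± 14.1. Plk1, the polo-like kinase of mitotic entry, was at 972 ± 218 and 677 ± 60.0 (-0.50), and its high mean in 36S rested in part on 1224 in library 1, against 834 and 860 in the others. Spindle checkpoint and anaphase genes (median -0.35) ranged from Mad2l1, a checkpoint protein (-0.51), to Espl1, which encodes separase (-0.12). Aurkb, the kinase of the chromosomal passenger complex, was at 621 ± 46.8 and 539 ± 48.9 (-0.20), without overlap. Kinetochore genes had a median of -0.38, spindle motors and assembly genes -0.33 and central spindle genes -0.32. Top2a, which untangles sister chromatids, was at 6043 ± 1046 and 4839 ± 80.7 (-0.31), and Mki67 at 26667 ± 1449 and 20922 ± 2065 (-0.35), and neither gene's groups overlapped. Leaving out 36S library 1 brought the member median to -0.24 with 0 members called.

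KD against 36S asks the same of a low GFI1 level. These fold changes use the same 36S libraries as those of 36N, so the 2 sets of values are not independent and are set side by side without a test of their likeness. Here 1 of 38 members fell and none rose, where 4.86% of all 13109 genes tested were called lower and 6.61% higher. Fold changes were negative in 37 members, against 50.9% of all genes, and the median was -0.29, against -0.01 over all genes. At an unadjusted p under 0.05, 13 members were lower and 0 higher, where 12.9% of all genes were lower and 13.6% higher, and in 15 members the KD libraries lay below all 36S libraries, where 15.8% of all genes did. The values ran from -0.59 (Espl1) to 0.13 (Birc5, survivin).

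Nek2 (chromosome 1, 191821444 to 191833050), a kinase that separates the centrosomes, was the gene that fell. Its normalized counts were 500, 468 and 422 in 36S and 322, 303 and 314 in KD, so the groups did not overlap (-0.56, SE 0.14, limma adjusted p = 0.032). In 36N the same gene was at 342, 352 and 323 (-0.45, limma adjusted p = 0.089). The call of Nek2 in KD was lost on leaving out any 1 of 36S libraries 1, 2 and 3 or KD libraries 7 and 9 (limma adjusted p from 0.055 to 0.14), and kept without KD library 8 (0.039). The next lowest p-values did not pass. They belonged to Bub1b, a checkpoint kinase-like protein, at 1371, 1299 and 1156 in 36S and 1022, 852 and 901 in KD (limma adjusted p = 0.053), and to Kif11, at 1490, 1144 and 1238 in KD (limma adjusted p = 0.065).

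Role medians in KD ran from -0.44 to -0.16. The spindle checkpoint and anaphase genes had a median of -0.44, led by Espl1, at 1142, 828 and 746 in 36S and 638, 651 and 500 in KD (-0.59, limma adjusted p = 0.074). The cyclin-CDK engine had a median of -0.17. Its Ccnb1 was at 758, 463 and 520 in KD, with library 7 above and libraries 8 and 9 below every 36S library (-0.06), and Cdk1 was at 559, 296 and 540 (-0.29). The chromosomal passenger complex had a median of -0.16, with Aurkb at 635, 485 and 512 (-0.20). Plk1 was at 1001, 629 and 771 (-0.28), Prc1 at 1305, 1074 and 1094 (-0.23) and Top2a at 5460, 4274 and 4326 (-0.36), and all of these overlapped 36S. Mki67 was at 23944, 21143 and 18552, below every 36S library (-0.34, limma adjusted p = 0.27). The member median was -0.43 without KD library 7, -0.16 without KD library 8 and -0.19 without 36S library 1.

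**Figure D2:**
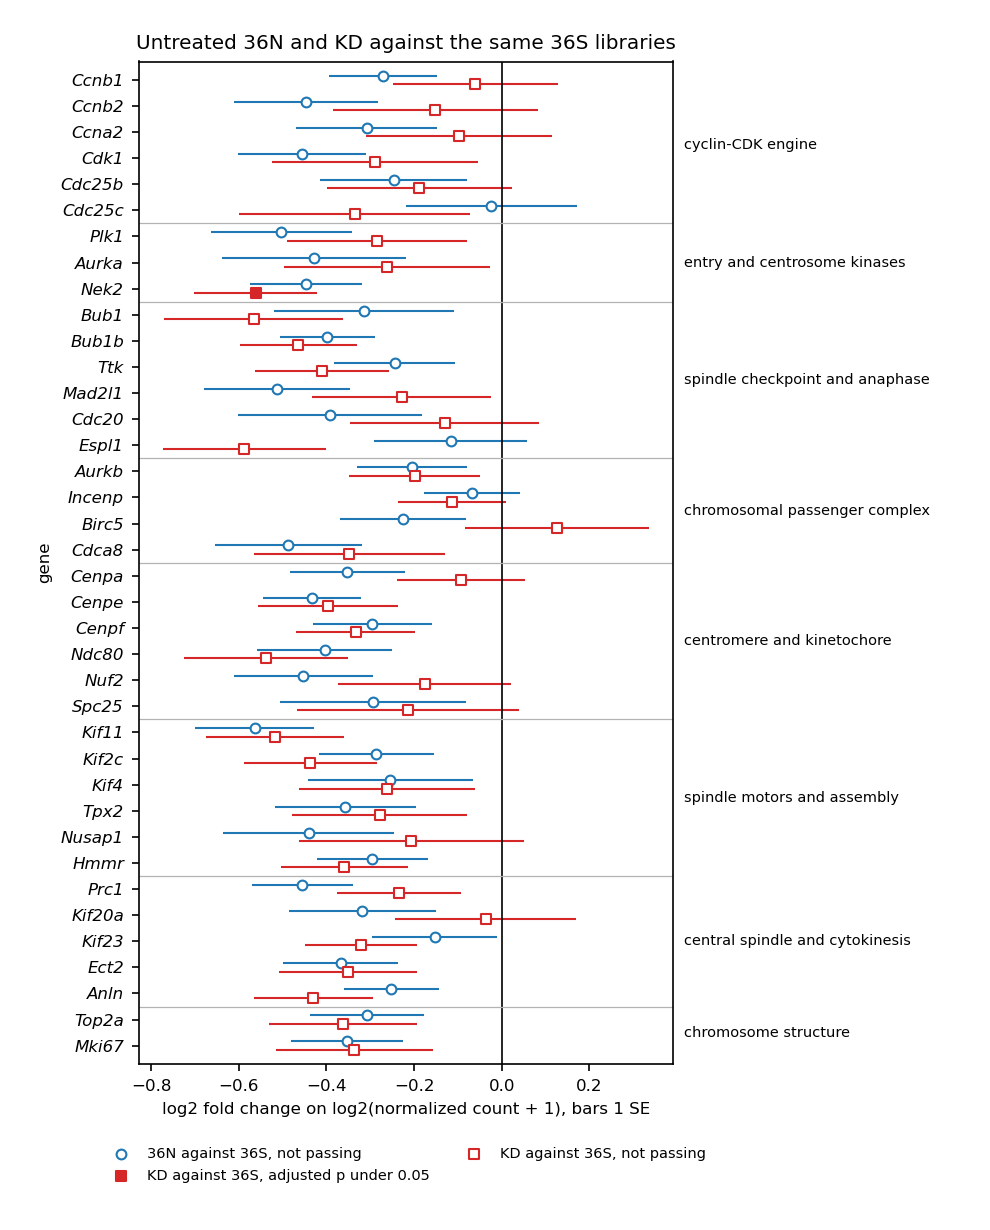
Log2 fold change of each member for untreated 36N (blue circles) and KD (red squares) against the same 3 36S libraries, bars 1 SE, filled where the adjusted p is under 0.05. All 38 circles lie below 0, from -0.56 to -0.02, 37 squares lie below 0, and the 1 filled symbol is Nek2 in KD.

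The scale of the tables touches the KD result. Setting every library to the same total moved the median of all genes from -0.01 to -0.13, and on that scale 8 members were called lower, namely Nek2, Bub1b, Ttk, Espl1, Ndc80, Kif11, Kif2c and Kif23. The share of higher genes among all calls was 57.6% as deposited and 39.3% with equal totals. Calls over all genes thus moved toward lower as well. The share of all genes called lower on that scale is not given here, so the 8 calls are not read as a result about the members.

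The genes around the members were read from lists of related genes. In 36N, 1 of 139 tested genes passed, where 4.56% of all genes tested did. It was the CDK4 and CDK6 inhibitor Cdkn2c, which rose from 656 ± 196 to 1478 ± 105 (1.21, SE 0.19, limma adjusted p = 0.0086). Without the intensity trend it did not pass (limma adjusted p = 0.054). Other mitotic genes (40 tested) had a median of -0.24, condensin and cohesin genes (20) -0.20, G1/S and replication genes (33) -0.16 and anaphase-promoting complex genes (18) -0.06, each with 0 calls. In KD, 3 of the 139 rose and 15 fell, where 6.61% of all genes tested were called higher and 4.86% lower. Mybl2, the MYB factor of the MuvB complex, fell from 879 ± 97.4 to 415 ± 38.6 (-1.08, SE 0.14, limma adjusted p = 0.0018), and Nfya, a subunit of NF-Y, fell too (-0.51, limma adjusted p = 0.029). These were the 2 calls among 13 genes of G2/M transcription control. Foxm1 was at 1730 ± 192 in 36S and 1254 ± 141 in KD and did not pass (-0.46, limma adjusted p = 0.064).

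Of 15 genes of G2 arrest and CDK inhibition, 2 rose and 4 fell in KD. Cdkn2c (1.57) and Btg2 (0.93) rose, and Cdkn1c (-2.38), Cdkn1a, which encodes p21 (-0.68), and Wee1 (-0.78) were among those that fell. Of 33 G1/S and replication genes 1 rose and 6 fell, with the lowest p-values in Cdk6 (-0.84), E2f3 (-0.72) and Mcm10 (-0.81). Condensin and cohesin genes fell in 2 cases, Ncapg2 (-0.72) and Sgo1 (-0.92), other mitotic genes in 1, the cytokinesis kinase Cit (-0.59), and the anaphase-promoting complex in 0. Pcna, the replication clamp, and the p53 target Ccng1 did not pass in KD (-0.24 and 0.02) or in 36N (-0.39 and -0.29). In 36N, Mybl2 (-0.43), Foxm1 (-0.29), Wee1 (-0.53) and Cdkn1a (-0.12) did not pass.

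Markers of other marrow cells moved in both comparisons. Summed early granulocyte markers were 64889 to 144757 in 36S, 36015 to 44768 in 36N and 30544 to 38941 in KD, and 3 of 5 fell in 36N and 4 of 5 in KD. Summed monocyte and macrophage markers were 45171 to 51039 in 36S, 54106 to 60626 in 36N and 93414 to 148571 in KD, where 8 of 10 rose, against 3 of 10 in 36N. Summed mast and basophil markers were 1711 to 2751 in 36S, 515 to 1454 in 36N, where 1 of 6 tested fell, and 2901 to 3436 in KD, where 2 of 6 rose and 2 fell. Of these, Ms4a2 was under 10 in every KD library and passed the filter through 36S alone, so it could only count as lower there. T and NK cell markers summed to 69.9 to 200.1 in 36S, 124 to 184 in 36N with 0 calls and 238 to 791 in KD, where 4 of 8 tested rose. Cd3g, Gzma and Gzmb were under 10 in every 36S library and passed the filter through KD alone. They could thus only count as higher in KD. B and plasma cell markers summed to 7634 to 11917 in 36S, 6425 to 11046 in 36N with 0 calls and 6147 to 6704 in KD, where 2 of 7 fell. Late neutrophil sums in 36N (10529 to 19776) and KD (10552 to 17773) lay within the 36S range, with 1 of 8 higher in 36N and 1 higher and 2 lower in KD. Erythroid sums overlapped 36S in both, with 0 of 3 tested called in 36N and 1 lower in KD. Their part in the values of the mitotic genes was not tested.

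TMZ against untreated cells within 36N gave the largest fold changes of the members. It uses the same untreated 36N libraries as the comparison with 36S above. Of 38 members, 24 rose, 6 fell and 8 did not pass, where 36.3% of all 14390 genes tested were called higher and 33.5% lower, 69.7% in all. That is 63.2% of members higher and 15.8% lower. The median log2 fold change was 0.62, against 0.06 over all genes. The TMZ libraries lay above all untreated ones in 23 members, where 38.7% of all genes did, and below them in 6, where 35.8% did. The 6 that fell were Mki67, Anln, Ccna2, Ttk, Ect2 and Hmmr. The 8 that did not pass were Plk1, Aurka, Nek2, Ccnb2, Cdc25c, Kif11, Nusap1 and Spc25. Without the intensity trend 24 of the 30 calls remained, and those of Bub1, Cenpf, Nuf2, Hmmr, Kif20a and Ect2 were lost. Calls of Ccna2 and Ttk were lost with some libraries left out, both of them without 36N library 6.

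How these values were made bears on every member, because the same library does not have the same relative values in 2 tables. The untreated 36N libraries are also in the table of untreated 36N and 36S, and the 36N TMZ libraries also in the TMZ table. For 9438 genes with at least 50 in all of these libraries, the log2 ratio of a library's value in one table to its value in the other was taken, less its median over genes. This ratio differed from gene to gene, with an SD of 0.34 for the untreated and 0.34 for the TMZ libraries, yet it was the same in all 3 libraries of a group, with an SD over libraries under 0.001 for 99.9% of the genes and for all 38 members. A factor for each gene and table, beyond the library factor, is therefore part of the deposited values. Across the 9438 genes, which are not independent replicates, the factors of the 2 groups went in opposite directions (Pearson r = -0.91). No source used here says how the factors were made. A factor that both groups of a table share cancels in a difference within that table, but stays in a difference across tables. The ratios cannot show whether the 2 groups of one table share it. It is thus not known which of the readings given below, from one table or across tables, lies nearer to the RNA levels.

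The difference between TMZ and untreated libraries was therefore also taken across tables, with each group from its own table and the median of 12240 shared genes set to the same value. This has no test, because those tables were normalized separately. The member median became 0.46, with 27 members above 0, where 50.9% of all genes were. TMZ libraries lay above all untreated ones in 22 members, where 35.3% of all genes did, and below them in 3, where 32.6% did. Of the 24 genes that rose in the one table, 16 had TMZ libraries above all untreated ones across tables too, and Bub1b, Cenpf, Tpx2, Prc1 and Kif23 were at or below 0. Of the 6 that fell, Mki67, Anln and Ccna2 had TMZ libraries below all untreated ones, Ttk stayed below 0, and Ect2 and Hmmr were above it. Of the 8 that did not pass, Ccnb2, Cdc25c, Nek2, Spc25 and Kif11 had TMZ libraries above all untreated ones across tables.

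**Figure D3:**
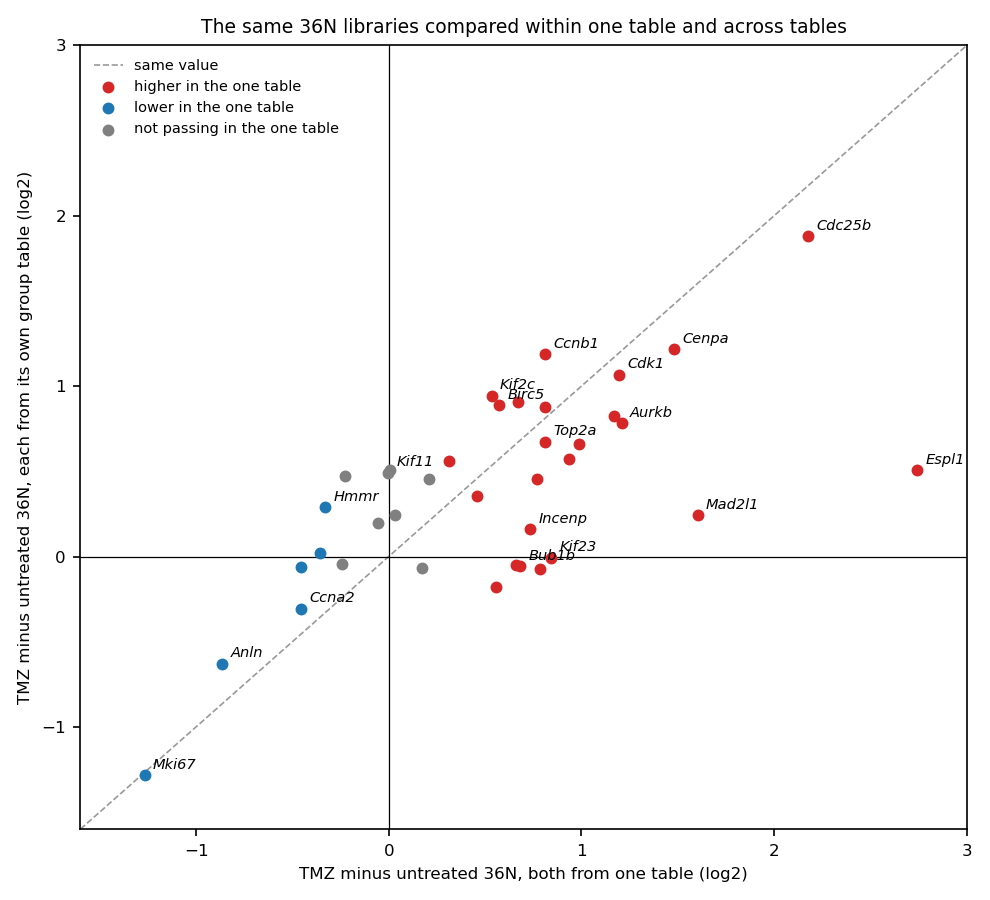
Each point is a member; x is TMZ minus untreated 36N (log2) with both groups from one table, y the same difference with each group from its own table, and the dashed line marks equal values. Mki67 (-1.27 and -1.28), Cdk1 (1.19 and 1.07) and Cdc25b (2.18 and 1.88) lie near the line, while Espl1 (2.74 and 0.51) and Mad2l1 (1.60 and 0.24) lie far below it.

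In the cyclin-CDK engine 3 genes rose and 1 fell. Cdc25b, a phosphatase that activates cyclin B with CDK1, had normalized counts of 281, 258 and 259 untreated and 1308, 1044 and 1289 with TMZ. The groups lay far apart, 4.56-fold (2.18, SE 0.14, limma adjusted p = 1.1e-05), and across tables the difference was 1.88. Cdk1 rose from 652, 495 and 531 to 1335, 1354 and 1140 (1.19, SE 0.15, limma adjusted p = 2.5e-04), and by 1.07 across tables. Ccnb1 rose from 847, 770 and 723 to 1617, 1441 and 1094 (0.81, limma adjusted p = 0.0031), and by 1.19 across tables. Ccna2, cyclin A2 of S phase and G2, fell from 2736 ± 189 to 2002 ± 273 (SD, n = 3; -0.46, limma adjusted p = 0.016). Ccnb2 stood at 1147 ± 103 and 1099 ± 6.35, and Cdc25c at 291 ± 25.9 and 249 ± 24.5, and neither passed. Across tables they stood 0.20 and 0.47 higher, with TMZ libraries above all untreated ones.

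None of the 3 entry and centrosome kinases passed. Plk1 was at 992, 839 and 880 untreated and 1218, 890 and 968 with TMZ, with overlapping groups (0.17, limma adjusted p = 0.34), and stood at -0.066 across tables. Aurka, the kinase of spindle poles, was at 664 ± 28.0 and 692 ± 162, and Nek2 at 589 ± 23.6 and 592 ± 47.6. Across tables Nek2 stood 0.51 higher with TMZ, without overlap.

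Of the 6 spindle checkpoint and anaphase genes 5 rose. Espl1 (chromosome 15, 102296266 to 102324357) had 480, 413 and 553 untreated and 3080, 3214 and 3335 with TMZ, 6.66-fold higher with no overlap (2.74, SE 0.13, limma adjusted p = 3.5e-06). In their own tables the same libraries had 825, 711 and 945 and 2273, 2351 and 2412, and on the common scale the difference was 0.51, or 1.42-fold. The size of the rise of Espl1 thus depended on the table, while its direction and the gap between the groups did not. Mad2l1, whose product inhibits CDC20 at unattached kinetochores, had 713, 687 and 557 untreated and 1977, 2250 and 1727 with TMZ (1.60, limma adjusted p = 6.3e-05), but across tables the difference was 0.24 and the groups overlapped. Cdc20, the activator of the anaphase-promoting complex, rose from 640 ± 141 to 1211 ± 124 (0.94), and by 0.57 across tables. Bub1 and Bub1b rose by 0.67 and 0.68 in the one table. The checkpoint kinase Ttk fell from 560 ± 69.1 to 408 ± 39.9 (-0.46).

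All 4 genes of the chromosomal passenger complex rose, and all 4 stayed above 0 across tables. Aurkb had 651, 562 and 672 untreated and 1540, 1467 and 1347 with TMZ, 2.31-fold with no overlap (1.21, SE 0.13, limma adjusted p = 9.8e-05), and 0.78 across tables. Cdca8, borealin, rose by 1.17, the scaffold Incenp by 0.73 and Birc5 by 0.57. Of the 6 centromere and kinetochore genes 5 rose. Cenpa, the histone H3 variant of centromeres, had 869, 834 and 735 untreated and 2564, 2150 and 2112 with TMZ (1.48, SE 0.13, limma adjusted p = 4.1e-05), and 1.22 across tables. Ndc80 (0.81), Cenpe (0.77), Cenpf (0.56) and Nuf2 (0.31) rose as well in the one table, and Spc25 did not pass (0.21, and 0.46 across tables).

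Spindle motors and assembly genes were divided. Kif4, Tpx2 and Kif2c rose, by 0.99, 0.66 and 0.53, the hyaluronan receptor Hmmr fell by 0.33 on the log2 scale, and Kif11 and Nusap1 did not pass. Kif11 had 2085, 1860 and 2276 untreated and 2098, 2263 and 1840 with TMZ (0.00), with full overlap, whereas across tables it stood 0.49 higher with no overlap. Among central spindle and cytokinesis genes Kif23, Prc1 and Kif20a rose and Anln and Ect2 fell. Prc1 had 1054, 1051 and 1102 untreated and 1970, 2207 and 1433 with TMZ (0.78, limma adjusted p = 0.0039), but -0.073 across tables. Anln, anillin of the contractile ring, fell from 1397, 1392 and 1599 to 1076, 728 and 657 (-0.86, limma adjusted p = 0.0049), and was at -0.63 across tables. Taken across tables, none of these 5 genes had TMZ libraries above all untreated ones.

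The 2 genes of chromosome structure went opposite ways in both readings. Mki67 (chromosome 7, 135689784 to 135716361) had 30289, 25684 and 31089 untreated and 13202, 12762 and 10306 with TMZ. No libraries overlapped, and the gene fell to 0.417 of its untreated level (-1.27, SE 0.15, limma adjusted p = 2.2e-04), with -1.28 across tables. Top2a rose from 5770, 5948 and 5960 to 10758, 9521 and 10776 (0.81, SE 0.11, limma adjusted p = 3.5e-04), and by 0.67 across tables. The share of Mki67 in the summed member counts was 39.5 to 43.0% untreated and 15.0 to 17.1% with TMZ.

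**Figure D4:**
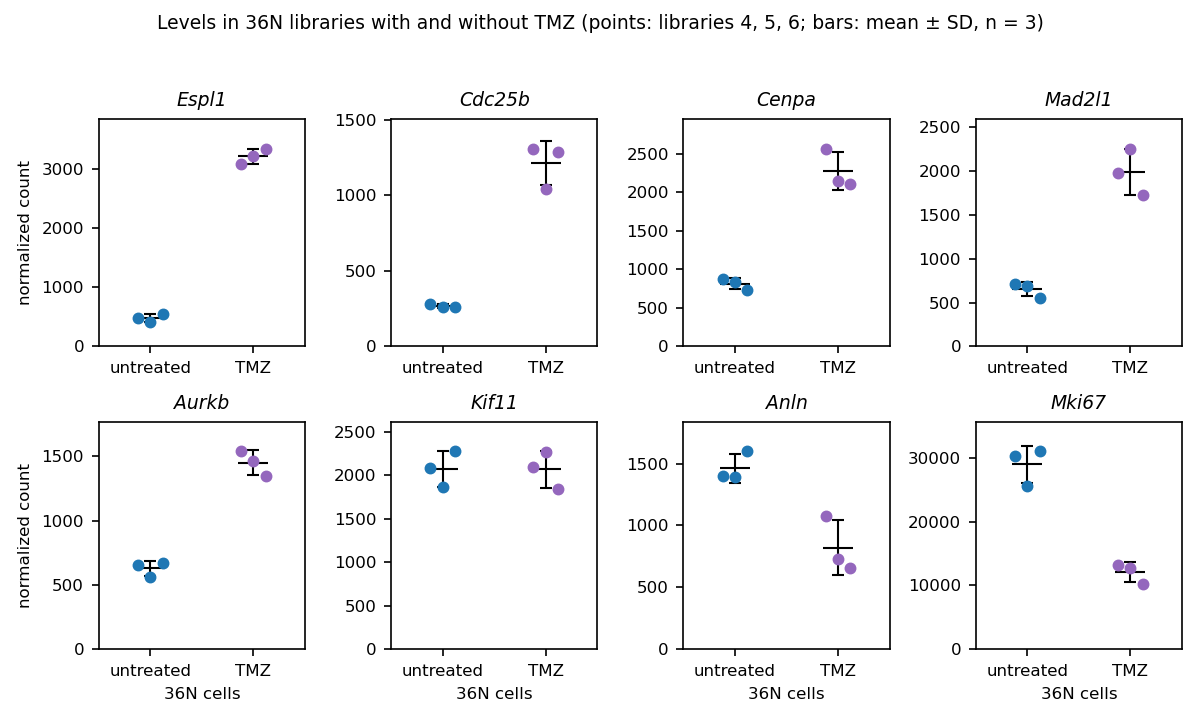
Normalized counts of 8 members in the 3 untreated and 3 TMZ libraries of 36N, from the one table that holds both groups; points are libraries and bars the mean ± SD. Espl1, Cdc25b, Cenpa, Mad2l1 and Aurkb are higher with TMZ in all 3 libraries, Anln and Mki67 are lower in all 3, and Kif11 overlaps (2073 ± 208 and 2067 ± 213).

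Gene length ran with the TMZ difference over all genes. The median fold change of all genes went from 0.33 for genes spanning under 5 kb to -0.72 for those of 100 kb or more, and Spearman's rho with span was -0.17 over 14189 genes. Over the 38 members rho was -0.24 with genomic span and 0.07 with exonic length, across genes of the same libraries. The median span was 25.1 kb for the 24 members that rose, 34.9 kb for the 6 that fell and 14.1 kb for the 8 that did not pass. The part of length in the result was not tested further.

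In the related lists, 60 of 140 tested genes rose with TMZ in 36N and 33 fell, where 36.3% of all genes tested were called higher and 33.5% lower. Of 18 anaphase-promoting complex genes 10 rose and 2 fell, with the lowest p-values in Ube2s (1.69), Anapc4 (1.57) and Anapc2 (1.34), which stood at 0.44, 1.09 and 1.10 across tables. Of 40 other mitotic genes 19 rose and 12 fell, led by Kifc1, a minus-end motor, which rose from 324 ± 21.2 to 2274 ± 186 (2.81), Kif22 (2.12) and Psrc1 (2.42). Condensin and cohesin genes rose in 4 and fell in 6 of 20, with Ncaph2 higher (2.05) and the cohesin genes Stag1 (-2.35) and Pds5b (-1.64) lower. Of 13 G2/M transcription control genes 4 rose and 7 fell. Lin54 of the MuvB complex (-1.35), E2f4 (-0.83) and Nfyc (-1.08) fell, Mybl2 rose (1.09, limma adjusted p = 0.0080, and 0.40 across tables), and Foxm1 did not pass (-0.13, and -0.59 across tables).

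Of 16 genes of G2 arrest and CDK inhibition 10 rose in the same libraries and 1 fell. Cdkn1a rose from 760 ± 52.6 to 2656 ± 177 (1.80), and by 1.94 across tables, and Ccng1 rose by 1.12 and by 1.11 across tables. Plk3 rose by 4.02, Cdkn2c fell (-2.11), and Wee1 did not pass (-0.07). G1/S and replication genes rose in 13 and fell in 5 of 33, with the lowest p-values in Ccnd1 (-5.34), Tyms (1.59, but 0.0047 across tables) and Ccnd2 (4.10). Pcna, at 3518 ± 340 and 3370 ± 334, did not pass (-0.06).

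Markers of some other cell types differed widely between these groups. Summed mast and basophil markers were 626 to 1817 in untreated and 97603 to 241219 in TMZ libraries, and all 10 rose. Fcer1a, Tpsb2 and Mcpt4 were at 0 in all untreated libraries. These genes and Cma1 were under 10 in every untreated library and passed the filter through the TMZ libraries alone. They could thus only count as higher. Summed B and plasma cell markers were 8776 to 15108 and 215 to 504, and all 6 tested fell. Erythroid markers summed to 512 to 2282 and 3838 to 7311, with 4 of 9 tested higher. Most of the TMZ sum was Tfrc, at 633, 442 and 553 untreated and 4520, 6775 and 3223 with TMZ. T and NK cell markers summed to 191 to 282 and 6361 to 9044, with 2 of 7 tested higher and 4 lower. Most of the TMZ sum was Gzmb, at 8.27, 18.2 and 22.7 untreated and 5912, 7845 and 8248 with TMZ. Cd3e and Gzma were at 0 in all TMZ libraries. Cd3e, Cd3g, Cd2 and Klrb1c passed the filter through the untreated libraries alone, being under 10 in every TMZ library. The same held for Cd79a, Igkc and Jchain among the B and plasma cell markers. All of these could thus only count as lower. Monocyte and macrophage markers summed to 79329 to 91343 untreated and 22365 to 63313 with TMZ, with 2 of 10 higher and 5 lower. Sums overlapped for late neutrophil markers (15355 to 28548 and 5284 to 26045, 1 of 8 higher and 2 lower) and for early granulocyte markers (47158 to 58159 and 45082 to 76295, 2 of 5 higher and 1 lower). TMZ, the cell types present and the time kept before RNA isolation cannot be told apart in these groups.

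With TMZ in both genotypes, 36N and 36S had no member called, and no gene of 14246 was called by limma in either direction (0%). At an unadjusted p under 0.05, 0.505% of all genes were lower and 0.835% higher, and 0 members. Fold changes were below 0 in 25 members, where 47% of all genes were. The member median was -0.01, against 0.01 over all genes, and members ran from -0.22 (Cdc25c) to 0.17 (Ccna2). The 95% interval of a single member reached a median of 0.43 to either side. For a member near 0, a difference of -0.34, the median between untreated 36N and 36S, thus lies within it. No interval was made for the median over the members. In 1 member, the microtubule depolymerase Kif2c, the 36N libraries lay below all 36S ones, where 1.86% of all genes did, and in 0 they lay above them, where 2.9% did. Some markers paired libraries 1 with 4, 2 with 5 and 3 with 6. Mcpt8 stood at 13854, 41813 and 73663 in 36S and at 16051, 37009 and 74070 in 36N. Others did not, such as Ltf at 5909, 665 and 2772 against 1800, 52.0 and 4824. No label says what this marks, and neither this fit nor the interaction below had a term for it. Spread of that kind is thus part of their error, and the lack of calls does not show the genotypes to be alike.

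The 3 lowest p-values did not pass. Cdc25c was at 534, 499 and 463 in 36S and 442, 464 and 377 in 36N, Cdc20 at 1641, 1625 and 2052 against 1726, 1547 and 1377, and Cenpe at 4402, 3691 and 4124 against 3959, 3486 and 3551. All 3 pairs of groups overlapped. Ccnb1 was at 2296 ± 501 in 36S and 2279 ± 459 in 36N, Cdk1 at 1655 ± 298 and 1681 ± 170, Plk1 at 1305 ± 87.8 and 1306 ± 228 and Aurkb at 1988 ± 307 and 1858 ± 143. Kif11 stood at 3458 ± 623 and 3518 ± 385, Prc1 at 1890 ± 526 and 1919 ± 419, Top2a at 15587 ± 1380 and 15507 ± 1079 and Mki67 at 18561 ± 1303 and 17275 ± 2386. In the related lists 0 of 140 genes were called, with Cdkn1a at 3322 ± 111 and 3927 ± 254, Ccng1 at 4607 ± 1051 and 5380 ± 477, Foxm1 at 2284 ± 557 and 1909 ± 454, Mybl2 at 1992 ± 565 and 1824 ± 765, Wee1 at 1001 ± 167 and 928 ± 174 and Pcna at 5254 ± 855 and 5583 ± 546.

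**Figure D5:**
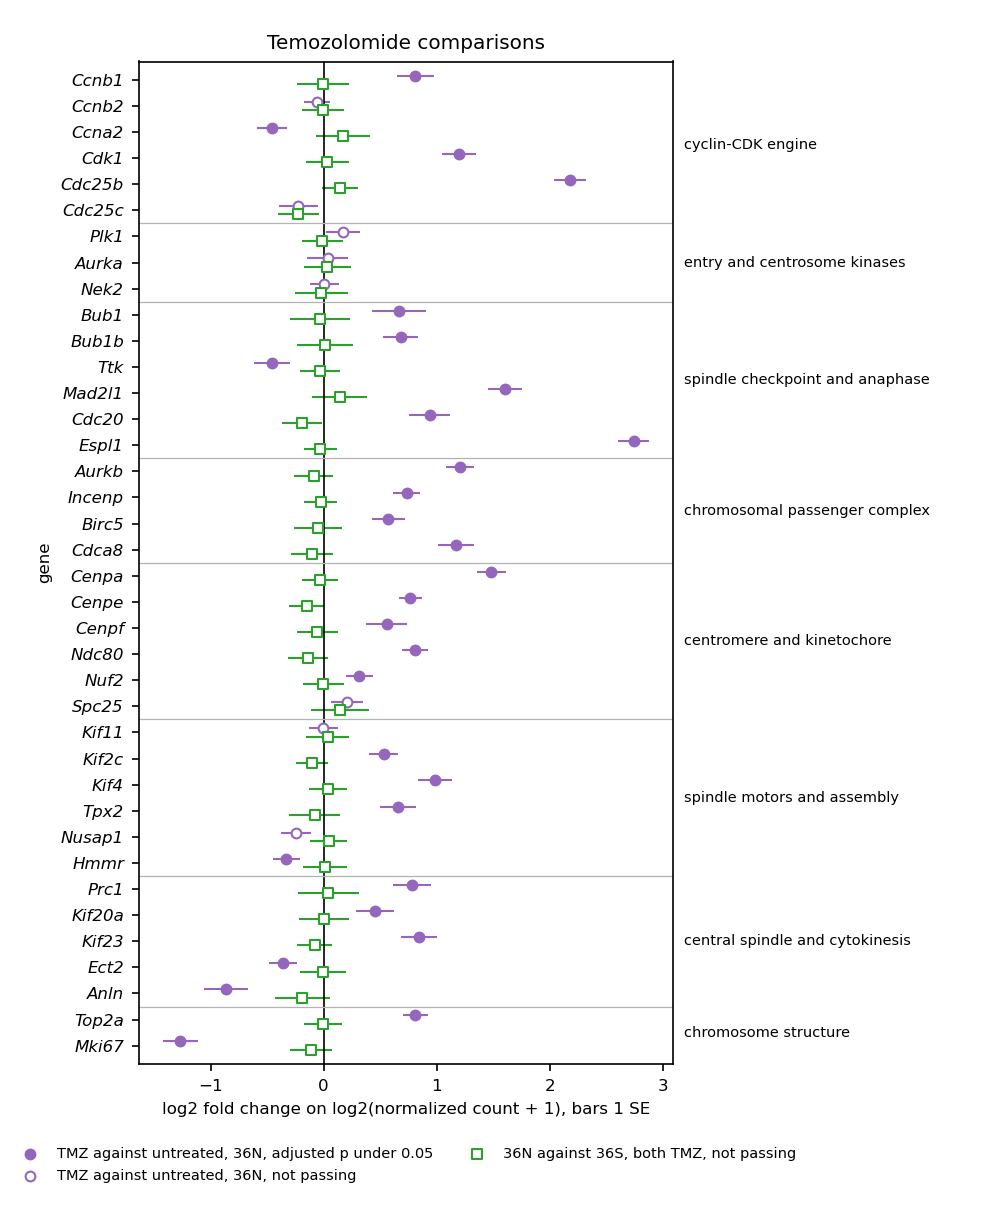
Log2 fold change of each member for TMZ against untreated 36N (purple circles) and for 36N against 36S with TMZ in both (green squares), bars 1 SE, filled where the adjusted p is under 0.05. Circles run from -1.27 (Mki67) to 2.74 (Espl1) with 30 filled, and squares stay between -0.22 and 0.17 with none filled.

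Whether the difference between 36N and 36S depended on TMZ was tested directly, as the difference of the 2 differences within tables. This needs no common scale of the tables, provided that the 2 groups of each table share its factor per gene, which is not known. None of the 38 members passed, and 0.333% of the 12324 genes tested were called. The estimate was above 0 in 37 members, where 46.5% of all genes were below 0, with a median of 0.30, against 0.03 over all genes. It was largest in Mad2l1 (0.65, SE 0.31, limma adjusted p = 0.73) and had its lowest p in Kif11 (0.60, SE 0.23, limma adjusted p = 0.58), the 1 member higher at an unadjusted p under 0.05, where 3.96% of all genes were. The one negative value was that of Cdc25c (-0.20). The difference between untreated 36N and 36S, in which no member passed, was thus not shown to differ from that with TMZ. The members' median was lower in the first (-0.34) and near 0 in the second (-0.01).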

How the data were processed

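The deposited values are normalized counts per gene, that is, a signal that the authors had scaled before deposit. Per the submitters' processing notes, Salmon and DESeq2 were used with build mm10. No source used here gives versions or other steps. RNA was poly(A)-selected, per the labels' protocols. The 36S values of the 2 untreated tables were identical, so these tables share a scale. The other tables were normalized separately, and tests stayed within a table, except for the interaction, which had an intercept per table. Whole reads were not recovered, since at best 26.9 to 57.9% of a library's values under 30 were within 0.1 of a whole number.

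Genes with at least 10 in 3 or more libraries were tested with limma 3.58.1 (R 4.3.3, intensity trend) on log2(normalized count + 1), which understates changes of low genes, two-sided, with Benjamini-Hochberg adjustment over all genes of a table and a threshold of 0.05. The fit was run on simulated data with known changes, all larger than the members' fold changes between untreated groups. That check thus says nothing of its power for changes as small as those. The alternatives changed the pseudocount (0.5 or 5), the filter (none or 50), the scale (equal totals or quantile normalization) or the trend (none), or were a fit of all 3 untreated groups and each library left out in turn. Values across tables were added after the data were seen. A block by library number was tried for TMZ in 36N. Deviations of same-numbered libraries correlated at 0.019, 0.037 and 0.086, so the numbers were not taken as pairs.

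Values of every library are given for members with an adjusted p under 0.05 (up to 6 with the lowest p) or, where fewer than 3 passed, the 3 lowest p-values. Ccnb1, Cdk1, Plk1, Aurkb, Kif11, Prc1, Top2a and Mki67 are described in every comparison, as are Foxm1, Mybl2, Wee1, Cdkn1a, Ccng1 and Pcna among related genes, and up to 3 genes per related list with the lowest p. Members, lists and this rule were chosen with earlier results of these data known. Other members are named to account for all. Gene positions and lengths are from GENCODE M21 and promoter windows from RefSeq. No strand setting of the counting is given, so overlapping genes may share reads.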

Additional observations from a re-analysis of the deposited data

How the results depend on the processing

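In untreated 36N against 36S, the count of members called lower, 0 as reported, was 1 with a pseudocount of 5 or equal totals (Kif11) and 2 with quantile normalization (Kif11 and Prc1). It was 0 with each library left out. In the same comparison 599 genes were called in all, 305 without the intensity trend and 188 (without 36S library 2) to 508 with a library left out. The member median then ran from -0.42 to -0.24, and Cdc25c from -0.11 to 0.13.

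In KD against 36S the members called lower were 8 with equal totals, 4 with quantile normalization and 0 without the trend. They were 4 with all 3 untreated groups fitted together and 0 to 2 with a library left out. The shares of all genes called lower under these alternatives are not given here. The count of all genes called was 1503 and ran from 591 (without 36S library 2) to 2051 (without KD library 8) with a library left out. Signs then turned in Ccnb1 (-0.27 to 0.086, above 0 without KD library 8 or 9), Cdk1 (-0.45 to 0.0089, above 0 without KD library 8) and Birc5 (-0.076 to 0.33, below 0 without KD library 7).

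For TMZ in 36N the members that rose numbered 20 to 23 and those that fell 3 to 5 with a library left out, and 3 fell without 36N library 4, 36N library 5 or 36N TMZ library 6. Of the 30 members called, 26 remained with equal totals (Bub1, Cenpf, Nuf2 and Kif20a lost, Nusap1 gained), 27 with quantile normalization (Bub1, Nuf2 and Kif20a lost), 24 without the intensity trend and 29 with no filter (Nuf2 lost). The member median was 0.46 with equal totals and 0.46 across tables. Equal totals moved the median of all genes from 0.06 to -0.09. Across tables, signs turned among the genes followed in Plk1 (-0.066), Prc1 (-0.073), Kif11 (0.49), Wee1 (0.072) and Pcna (0.30). With a library left out they turned in genes that had not passed, namely Kif11 (-0.081 to 0.077), Foxm1 (-0.29 to 0.052), Wee1 (-0.17 to 0.086) and Pcna (-0.14 to 0.017). With the replicate block by library number 25 of the 30 members remained called, and Bub1, Nuf2, Hmmr, Kif20a and Ect2 were lost. The causes of these changes were not tested.

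With TMZ in both genotypes 0 genes were called, and 1 without 36S TMZ library 3. For the interaction 41 genes were called, 27 with a filter of 50 and 8 to 34 with a library left out. No member was called in these 2 comparisons under any alternative run. None of those alternatives had a term for the pairing of libraries seen in some markers. The number of libraries, 3 a group, limits the precision, and the read depth is unknown.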
